A study of Mus musculus with 12 samples.

Results

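The genes described here were *Apln*, *Aplnr*, *Vegfa*, *Flt1* and *Kdr*, that is, the ligand and receptor of the apelin system, the leading ligand of the vascular endothelial growth factor (VEGF) family and its tyrosine kinase receptors of blood vessels. They were 5 of the 31053 genes in the count table. Because they were picked on their measured values in these libraries, their levels are given as a description and without a test. Tests were made only for other genes of the same pathways, each fitted together with all genes of its comparison. The lists of these genes were also chosen with earlier results of the data known, which the p-values do not take into account.

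Apelin is a secreted peptide that binds the G protein-coupled receptor encoded by *Aplnr*. During vessel growth it is known from sprouting endothelial cells, above all from the tip cells that lead a new branch, and its expression can be raised by low oxygen. *Vegfa* encodes the main growth factor that attracts these sprouts. In the brain it is made largely by cells outside the vessel wall. *Kdr* encodes VEGF receptor 2, which carries most of the growth signal, whereas *Flt1* encodes VEGF receptor 1, which binds the ligand tightly and signals weakly. *Flt1* also gives rise to a soluble form that holds ligand back. The count table had 1 row per gene, so soluble and membrane forms were summed.

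The cells came from the striatum of wild-type mice whose strain is labelled mixed, and were enriched with magnetic beads for ACSA2, a surface antigen of astrocytes. Each of the 12 samples was a sequencing run of 1 of 4 droplet-based single-cell libraries, 2 of postnatal mice and 2 of mice aged 3 months (3m), and the runs of a library were merged in the table. The methods of the study, written for libraries with other identifiers, describe pooled male C57BL/6Jax animals with the neurogenic tissue next to the ventricle left out. Whether this holds for these 4 libraries is not stated. The labels contradicted each other on the days of the postnatal libraries. Replicate 1 was titled day 7 and tagged day 3, and replicate 2 was titled day 3 and tagged day 7, so both were treated as 1 postnatal group. There was no other treatment or genotype. The libraries were the replicates, with n = 2 per age throughout, and values are listed in the order postnatal replicates 1 and 2, then 3m replicates 1 and 2.

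The cell filter of the study (at most 10% mitochondrial molecules, at least 500 genes) kept 3163 of 4245 barcodes, with library medians between 7738 and 11640 unique molecular identifiers (UMIs, 1 per captured RNA molecule). A cell entered a class when it had a UMI of each of 3 markers. Astroglia (*Slc1a3*, *Mfge8*, *Mlc1*) numbered 172, 485, 247 and 241 cells. Endothelial cells (*Cldn5*, *Pecam1*, *Itm2a*) numbered 32, 24, 51 and 38, and mural cells, the pericytes and smooth muscle of the vessel wall (*Rgs5*, *Vtn*, *Pdgfrb*), numbered 16, 29, 57 and 47. In each library all 10 listed endothelial markers were found in endothelial cells and all 10 listed astroglial markers in astroglia, and at least 9 of 10 mural markers in mural cells. The sort was aimed at astrocytes, and vessel cells were a minority of what was captured.

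The endothelial cells were not free of other transcripts. Of the 145 cells, 75 also passed the mural gate, namely 20, 20, 21 and 14, and none passed the gate of a further class. The summed level of the 10 mural markers in endothelial cells was 3554, 2996, 9511 and 10088 counts per 1000000 UMIs (CPM), against 21148 to 48342 CPM in mural cells. Red cell markers summed to 28698 to 53507 CPM. The postnatal endothelial cells were also deep, with medians of 40860 and 47120 UMIs against 7772 and 7671 at 3m. Therefore the levels of the members in endothelial cells, and those of some genes of the lists, are also given for the 70 cells that passed the endothelial gate alone (12, 4, 30 and 24 cells), in which mural markers summed to 308, 12.8, 1936 and 1625 CPM and red cell markers to 82045, 198571, 23115 and 57480 CPM. No doublet caller was run. Of the kept cells, 50 shared a barcode with a larger cell of another library, 46 of them in 3m replicate 2. Endothelial cells held 2 of these, mural cells 5 and astroglia none, all in 3m replicate 2. Without them the levels in the endothelial cells of 3m replicate 2 were 0 CPM for *Apln*, 2812 for *Flt1* and 534 for *Kdr*, and *Flt1* in its mural cells was 115 CPM.

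All 5 genes are protein-coding, and none overlapped another gene in the GENCODE M21 annotation of mm10, the build to which the reads were aligned. *Apln* lies on chromosome X (48025146 to 48034853, minus strand), *Aplnr* on chromosome 2 (85136225 to 85139923, plus strand), *Vegfa* on chromosome 17 (46016993 to 46032369, minus strand), *Flt1* on chromosome 5 (147561604 to 147726011, minus strand) and *Kdr* on chromosome 5 (75932827 to 75978458, minus strand). Promoters of 4 of the 5 were found in a RefSeq table of GRCm38.p6. The 250 bases before the start are shown for *Apln*, *Flt1* and *Kdr*, the members with the highest levels in postnatal endothelial cells, with capitals at each GGAA (or TTCC, the same letters on the other strand), the core bound by ETS factors, a family active in endothelial cells.
Apln, chrX:48034854-48035103, minus strand: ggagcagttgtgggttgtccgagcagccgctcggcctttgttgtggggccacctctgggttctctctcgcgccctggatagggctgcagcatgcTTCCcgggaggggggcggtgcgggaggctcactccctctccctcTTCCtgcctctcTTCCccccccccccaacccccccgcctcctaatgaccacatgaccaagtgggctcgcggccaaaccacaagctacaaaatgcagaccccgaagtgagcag
Flt1, chr5:147726012-147726261, minus strand: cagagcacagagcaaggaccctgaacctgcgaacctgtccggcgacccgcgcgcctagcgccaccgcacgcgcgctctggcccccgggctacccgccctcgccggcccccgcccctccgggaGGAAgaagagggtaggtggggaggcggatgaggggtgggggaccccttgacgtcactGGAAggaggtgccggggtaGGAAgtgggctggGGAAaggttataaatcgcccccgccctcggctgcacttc
Kdr, chr5:75978456-75978705, minus strand: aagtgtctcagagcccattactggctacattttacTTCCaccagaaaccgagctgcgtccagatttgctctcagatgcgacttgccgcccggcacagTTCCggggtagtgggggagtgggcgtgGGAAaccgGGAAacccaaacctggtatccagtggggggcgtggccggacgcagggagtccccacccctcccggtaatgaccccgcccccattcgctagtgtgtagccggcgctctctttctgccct
The core occurred 3 times before *Apln*, and 4 times each before *Flt1* and *Kdr*. Before *Vegfa*, which endothelial cells hardly held, it occurred 6 times. It is a short and common word. Of 32851 promoters of the same length in the table, 93.4% held it, with a mean of 2.91 matches. The core of hypoxia response elements, ACGTG or GCGTG on either strand, occurred in 38.6% of promoters and was not in this window of *Apln* or *Vegfa*. It occurred 1 time before *Flt1* and 2 times before *Kdr*.

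Among astroglia, endothelial cells, mural cells and oligodendrocytes, the level of *Vegfa* was highest in astroglia and those of the 3 receptors in endothelial cells. *Apln* was highest in the same class as its receptor in the postnatal libraries, and in astroglia at 3m.

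**Figure D1:**
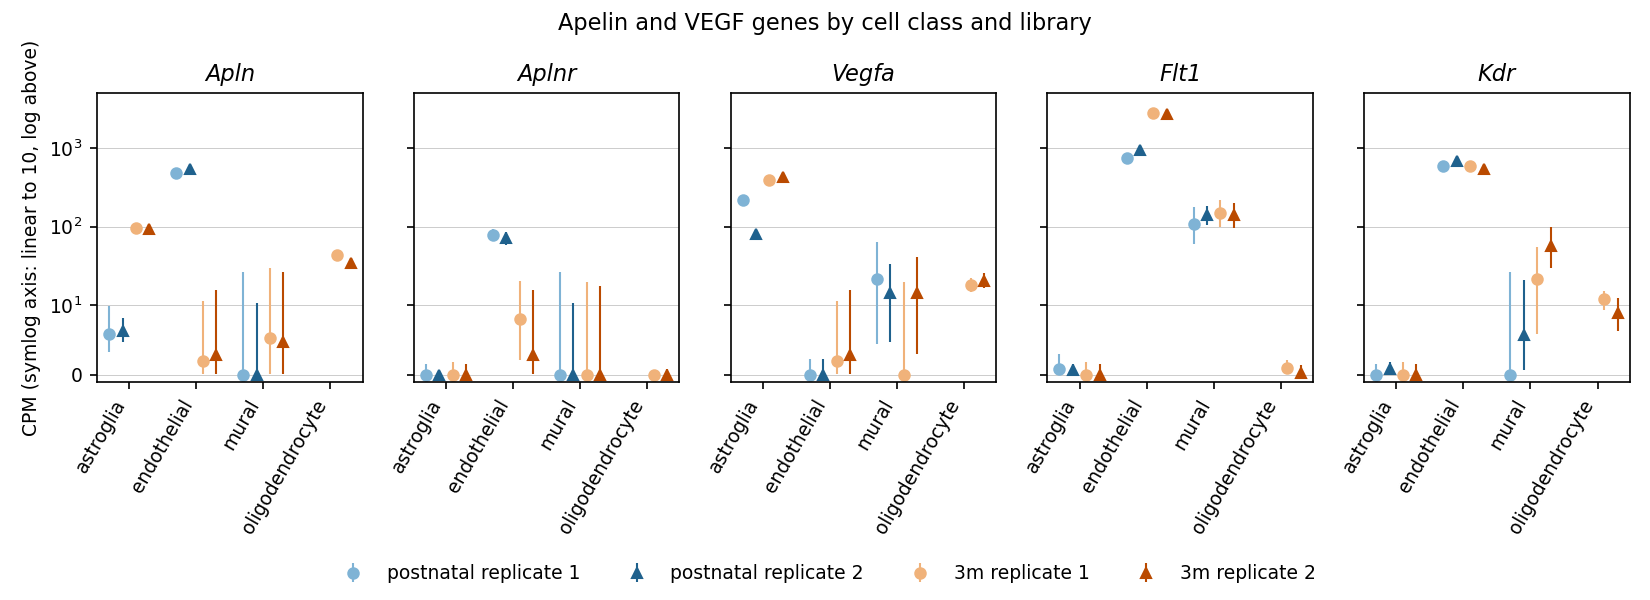
Level of each gene (CPM of the summed class, symlog axis) in astroglia, endothelial, mural and, at 3m, oligodendrocyte cells of each library; bars are 95% exact Poisson intervals of the counts. *Apln* stood at 489 and 545 CPM in postnatal endothelial cells and near 0 there at 3m, while in astroglia it stood at 97.2 and 94.8 CPM at 3m.

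*Apln* was an endothelial transcript in the postnatal striatum. Its level in endothelial cells was 489 and 545 CPM in the postnatal libraries and 2.01 and 2.80 CPM at 3m. The groups did not overlap, and each 3m value rested on 1 UMI, against 783 and 901 UMIs in the postnatal libraries. The group means were 517 ± 39.7 and 2.41 ± 0.562 CPM (SD, n = 2). Over the pooled counts this was a 221-fold lower level at 3m, with a counting interval of 61.1 to 1827. In cells that passed the endothelial gate alone the levels were 589 and 885 CPM postnatally and 0 and 5.62 CPM at 3m.

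Postnatal endothelial cells differed among themselves in *Apln*. In postnatal replicate 1, 25 of 32 cells held a UMI, the median was 14 and the highest cell held 134. In postnatal replicate 2, 21 of 24 cells held a UMI, the median was 34.5 and the highest cell held 132. The cell with the most *Apln* contributed 17.1% and 14.7% of the UMIs. At 3m, 1 of 51 and 1 of 38 cells held a UMI. Because the postnatal cells were deeper, cells were also thinned to 2000 UMIs each, which left out 0, 2, 2 and 3 endothelial cells. At this equal depth *Apln* was found in 43.8% and 72.7% of postnatal cells (95% Clopper-Pearson intervals 26.4 to 62.3% and 49.8 to 89.3%). It was found in 0 of 49 and 0 of 35 cells at 3m, which allows shares of up to 6.12% and 8.57%. Intervals and limits cover counting error only.

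In astroglia the order of the ages was the opposite. Here *Apln* stood at 5.85 and 6.24 CPM postnatally and at 97.2 and 94.8 CPM at 3m. Both 3m libraries lay above both postnatal ones, and within an age the libraries differed by less than 3 CPM. The means were 6.05 ± 0.276 and 96.0 ± 1.73 CPM (SD, n = 2), a 15.9-fold higher level at 3m. With cells of several gates kept the means were 10.5 and 89.2 CPM and the log2 ratio was 3.09 in place of 3.99. One postnatal cell, in replicate 2, held 11 of that library's 51 UMIs. As background for this comparison, 22.7% of the 11229 genes tested by age in astroglia were called. A UMI of *Apln* was found in 7.56% and 5.36% of postnatal astroglia, and in 44.9% and 50.6% of those at 3m. The 3m astroglia were shallower (medians of 6772 and 9471 UMIs) than the postnatal ones (12488 and 13346). At 2000 UMIs per cell the shares were 2.45%, 0.634%, 17.5% and 20.1%. Single astroglia held at most 6 UMIs at 3m, and 47 and 62 cells held 2 or more.

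Among the other cells of the 3m libraries, oligodendrocytes (*Mag*, *Mog*, *Cldn11*) also held *Apln*. It stood at 43.6 and 34.2 CPM, with a UMI in 178 of 551 and 87 of 284 cells. The 3m order was thus astroglia, oligodendrocytes, then mural and endothelial cells. The last 2 did not differ beyond their counting intervals, since mural cells had 1 UMI in each 3m library and none in the postnatal ones. Oligodendrocyte precursor cells (*Pdgfra*, *Olig1*, *Lhfpl3*) held no UMI of *Apln* in any library. The share of cells with a UMI in classes that held little of the gene was 1.75% and 2.13% in 3m mural cells (median depths 3054 and 4222 UMIs) and 0 of 40 in the precursor cells of 3m replicate 1 (median 7197 UMIs). Oligodendrocyte markers summed to 298 and 276 CPM in 3m astroglia and to 43262 and 49730 CPM in oligodendrocytes, and their part in the astroglial *Apln* level was not tested. No postnatal cell passed the oligodendrocyte gate (0 of 555 and 0 of 724, which allows shares of up to 0.541% and 0.414%), so *Apln* in this class could not be compared by age.

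Counted over a whole library, *Apln* UMIs came from different classes at the 2 ages. Endothelial cells were 5.77% and 3.31% of the postnatal cells and held 97.1% and 94.1% of all *Apln* UMIs. At 3m they were 4.55% and 4.97% of the cells and held 0.206% and 0.241%. Astroglia held 1.74% and 5.33% of the UMIs postnatally and 40.7% and 57.1% at 3m, and oligodendrocytes held 49.2% and 34.2% at 3m. Summed over all kept cells, *Apln* stood at 115, 84.9, 49.5 and 52.1 CPM. The whole-library level was thus 1.97-fold lower at 3m while the astroglial level was higher. A whole-library level also moves with the share of each class in the sort.

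**Figure D2:**
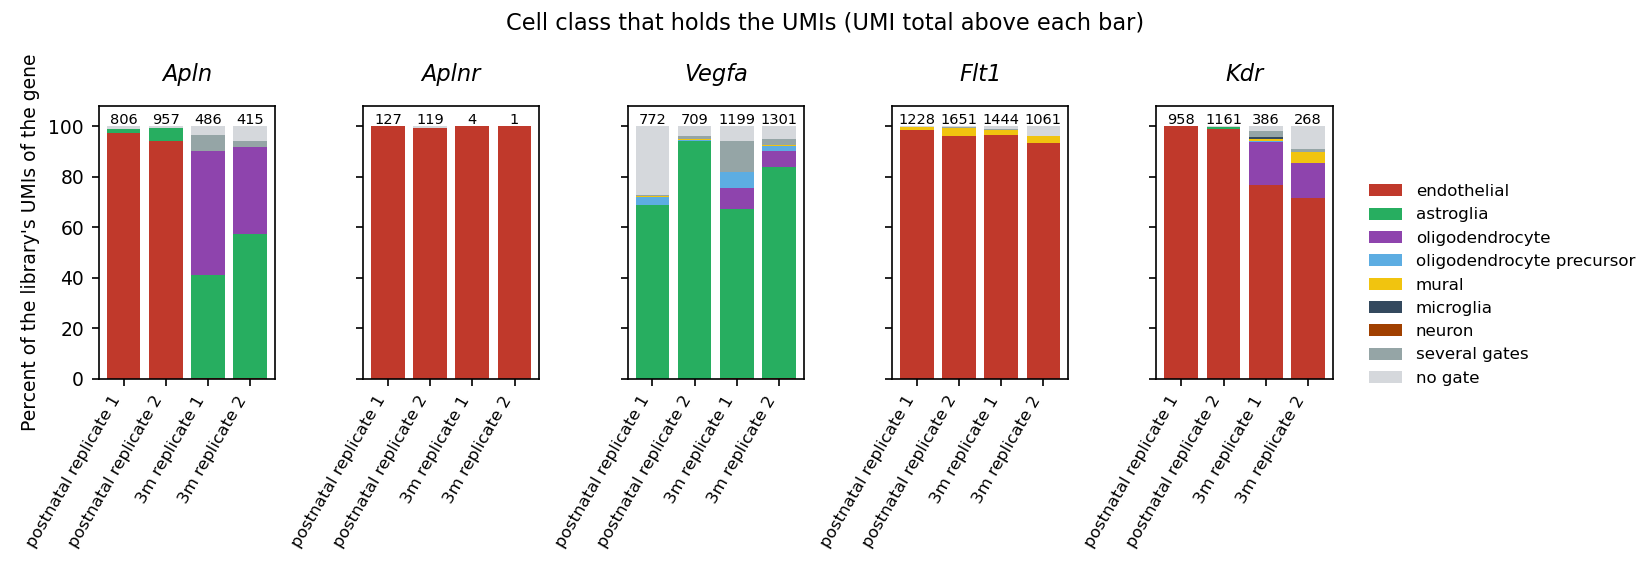
Percent of each library's UMIs of a gene found in each cell class, with the number of UMIs above the bar. The *Apln* UMIs were 97.1% and 94.1% endothelial in the postnatal libraries, and 40.7% and 57.1% astroglial at 3m; *Vegfa* was mostly astroglial and the receptors mostly endothelial in all 4.

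*Aplnr*, the apelin receptor, was found in endothelial cells and almost nowhere else. Its level there was 79.3 and 71.4 CPM postnatally and 8.03 and 2.80 CPM at 3m. The postnatal libraries held 127 and 118 UMIs and the 3m libraries 4 and 1, and the groups did not overlap. The means were 75.3 ± 5.60 and 5.42 ± 3.70 CPM (SD, n = 2), a 13.9-fold lower level at 3m. The pooled fold was 12.9, with a counting interval of 5.44 to 39.97. The log2 ratio was -3.80, and -4.75 without 3m replicate 1. In cells of the endothelial gate alone it was -2.65, from levels of 64.2, 51.3, 12.7 and 5.62 CPM.

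Within the postnatal endothelial cells 24 of 32 and 17 of 24 held a UMI of *Aplnr*. The highest single cells held 28 and 45 UMIs, which was 22.0% and 38.1% of the library's endothelial count. At 2000 UMIs per cell the shares were 12.5%, 9.09%, 2.04% and 0%, a range in which the intervals overlapped. No UMI was found in 1145 astroglia, which allows up to 0.284 CPM in the postnatal sum and 0.661 CPM in the 3m sum. Mural cells, oligodendrocytes and oligodendrocyte precursors likewise had none. Receptor and ligand were often in the same barcode. Both *Apln* and *Aplnr* were found in 22 of 32 and 17 of 24 postnatal endothelial cells. In thinned cells they met in 2 of 32 and 1 of 22 cells, where the product of their shares gives 1.75 and 1.45.

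Most *Vegfa* UMIs lay in astroglia at both ages. In astroglia it stood at 222 and 81.8 CPM postnatally and at 395 and 435 CPM at 3m. The 3m libraries lay above the postnatal ones, which differed from each other by more than the 3m libraries did. The means were 152 ± 98.8 and 415 ± 28.2 CPM (SD, n = 2), a 2.74-fold higher level at 3m. The log2 ratio of 1.45 became 2.34 without postnatal replicate 1 and 0.91 without postnatal replicate 2, so its size depended on which postnatal library was used. The share of astroglia with a UMI was 65.7%, 53.4%, 74.1% and 85.1%. At 2000 UMIs per cell it was 37.4%, 16.1%, 46.3% and 51.7%, and the interval of postnatal replicate 1 (30.0 to 45.3%) overlapped that of 3m replicate 1 (39.8 to 52.8%).

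Outside astroglia *Vegfa* was found in oligodendrocyte precursor cells. In the libraries with at least 10 such cells the level was 39.8 CPM in postnatal replicate 1 (57 cells, 24 UMIs) and 257 CPM in 3m replicate 1 (40 cells, 74 UMIs). Postnatal replicate 2 and 3m replicate 2 had only 6 and 7 of these cells, at 11.7 and 569 CPM. In 3m replicate 2 the precursors thus stood above astroglia. The 3m means were 413 ± 221 CPM in precursors and 415 ± 28.2 CPM in astroglia (SD, n = 2). Oligodendrocytes stood at 18.2 and 20.5 CPM at 3m. Mural cells had 3, 5, 0 and 3 UMIs, or 21.6, 14.3, 0 and 14.2 CPM. Endothelial cells held 0, 0, 1 and 1 UMIs, and those that passed only the endothelial gate held none. The postnatal endothelial count of 0 allows up to 0.922 CPM. In 3m replicate 1 the order was astroglia, oligodendrocyte precursors, oligodendrocytes, endothelial and mural cells. The intervals of the last 2 overlapped, and in 3m replicate 2 the mural interval of 2.93 to 41.6 CPM held the level of the oligodendrocytes.

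Both ligands were found in many of the same 3m astroglia. Of 247 and 241 cells, 90 and 112 held *Apln* and *Vegfa*, 21 and 10 held *Apln* alone, and 93 and 93 held *Vegfa* alone. At equal depth they met in 15 of 240 and 29 of 234 cells, where the product of the 2 shares gives 19.4 and 24.3. The count was thus below the product in 3m replicate 1 and above it in 3m replicate 2.

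*Flt1* was endothelial at both ages, and its level was higher at 3m. It stood at 754 and 958 CPM postnatally and at 2793 and 2776 CPM at 3m. The groups did not overlap, and every endothelial cell of every library held a UMI. The means were 856 ± 144 and 2785 ± 12.6 CPM (SD, n = 2), a 3.25-fold higher level at 3m. In cells of the endothelial gate alone the levels were 771, 1257, 3006 and 3098 CPM, a 3.01-fold difference. In thinned cells *Flt1* was found in 71.9%, 86.4%, 98.0% and 100% of the cells, with 1.31, 2.27, 5.59 and 6.46 UMIs per cell on average. Summed over whole libraries the ages overlapped, with a mean of 161 CPM postnatally and 140.2 CPM at 3m.

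Mural cells held *Flt1* at a lower level. Their values were 108.2, 140.4, 149 and 142 CPM, with a UMI in 7 of 16, 13 of 29, 10 of 57 and 12 of 47 cells. The means of the ages were 124 ± 22.8 and 146 ± 5.09 CPM (SD, n = 2), which differed by less than the SD of the postnatal libraries. The endothelial marker *Cldn5* had 1 and 3 UMIs in the postnatal mural cells, or 7.21 and 8.60 CPM. At 3m it reached 117 and 85.3 CPM. As a gate marker of endothelial cells its level in mural cells is partly set by the class definition, and the part of endothelial RNA in mural *Flt1* was not tested. In astroglia 8 postnatal UMIs and no 3m UMI of *Flt1* were found.

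Of the 4 members held by endothelial cells at either age, *Kdr* differed least there. It stood at 597 and 694 CPM postnatally and at 594 and 538 CPM at 3m. The intervals of postnatal replicate 1 (560.2 to 637 CPM) and 3m replicate 1 (529 to 666 CPM) overlapped. The means were 646 ± 68.5 and 566 ± 39.7 CPM (SD, n = 2), a log2 ratio of -0.19. The pooled counts were 1.13-fold higher postnatally, with a counting interval of 1.03 to 1.25. In cells of the endothelial gate alone the ages overlapped, with 631, 1001, 662 and 551 CPM. At 2000 UMIs per cell the shares were 62.5%, 72.7%, 75.5% and 62.9%, with intervals that all overlapped. Over whole libraries *Kdr* was 3.29-fold lower at 3m, with means of 120 ± 24.1 and 36.5 ± 4.01 CPM (SD, n = 2).

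The balance of the receptors in endothelial cells was different at 3m. The ratio of *Kdr* to *Flt1* UMIs was 0.792 and 0.725 postnatally and 0.213 and 0.194 at 3m. This ratio is taken within a library and does not depend on its scaling. The order of the receptors was the same in all 4 libraries, with *Flt1* above *Kdr* and *Kdr* above *Aplnr*. A UMI was counted once per molecule at its 3' end, so gene length does not enter these levels.

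*Kdr* was also found at a low level outside endothelial cells. In 3m oligodendrocytes it stood at 12.03 and 8.92 CPM, with a UMI in 60 of 551 and 33 of 284 cells (10.9% and 11.6%). In 3m astroglia of nearby depth it had 0 UMIs in 247 and 241 cells, which allows shares of up to 1.21% and 1.24%. *Cldn5* had only 5 and 2 UMIs in these oligodendrocytes, and *Flt1* 5 and 1, so *Kdr* was 13.2 and 37.0 times as frequent as *Flt1* there. At 2000 UMIs per cell the shares were 2.02% (11 of 545 cells) and 0.707% (2 of 283 cells). In mural cells *Kdr* had 0, 2, 4 and 12 UMIs, or 0, 5.73, 21.3 and 56.9 CPM. Without the 5 mural cells of 3m replicate 2 that shared a barcode with a larger cell, the last value was 15.0 CPM.

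**Figure D3:**
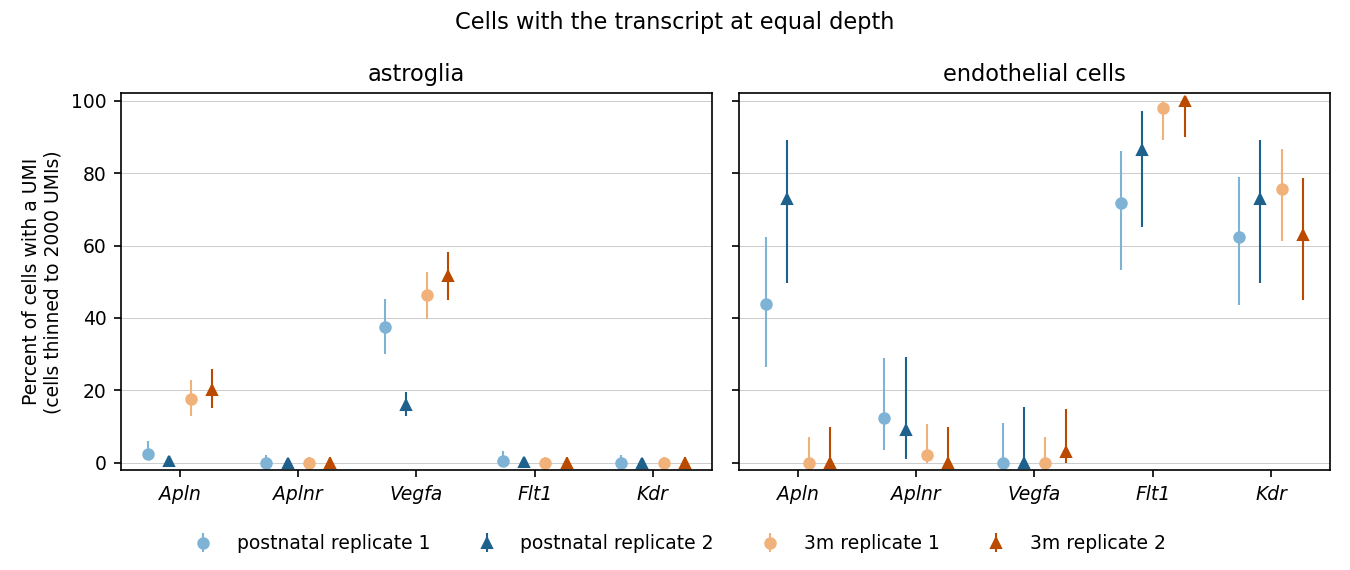
Percent of astroglia and of endothelial cells with a UMI of each gene after every cell was thinned to 2000 UMIs; bars are 95% Clopper-Pearson intervals. *Apln* was found in 43.8% and 72.7% of postnatal endothelial cells and in 17.5% and 20.1% of 3m astroglia, whereas the *Kdr* shares in endothelial cells ran from 62.5% to 75.5%.

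The genes most like each member were found by Pearson's r of log2(CPM + 10) over the 17 sums of a class in a library with at least 10 cells, among 11971 genes with at least 100 UMIs. These sums share libraries and differ in depth, and r is a description. *Apln* was most like *Exoc3l4* (r = 0.867), *Htra3* (0.813) and *Ctsw* (0.779), and its r with *Aplnr* was 0.762. *Aplnr* was most like *Fgfbp1* (0.984), *Ctsw* (0.977) and *Megf6* (0.971). *Vegfa* was most like *Ndp* (0.962), *Slc13a5* (0.955) and *Tspan7* (0.953), and with *Apln* its r was -0.05. *Flt1* was most like *Fxyd5* (0.987), *Foxq1* (0.979) and *Eng* (0.976), and *Kdr* was most like *Slc38a5* (0.976), *Hmcn1* (0.973) and *Serpinb6b* (0.972). No member was among the 3 most like genes of another, though *Flt1* and *Kdr* had an r of 0.888.

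The other genes of these pathways were then compared by age. Among 8747 genes tested in endothelial cells, 19.4% were called at an adjusted p of at most 0.05 and at least a 2-fold change (edgeR, Benjamini-Hochberg), 10.3% higher and 9.15% lower at 3m. Their median log2 fold change was 0.00. Without a scaling factor the split of calls changed from 53.0% to 66.6% higher and the median of all genes was 0.19. In the same fit the co-receptors and the lymphatic-type VEGF receptor were not called. *Nrp1*, which binds VEGF beside *Kdr*, stood at 197, 219, 173 and 168 CPM. *Nrp2* stood at 33.7, 51.4, 104 and 47.7 CPM, and *Flt4*, VEGF receptor 3, at 50.6, 53.2, 40.2 and 36.4 CPM. Their adjusted p were 0.0578, 0.0839 and 0.110.

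The VEGF ligands of endothelial cells were few. *Vegfc*, the ligand of *Flt4*, rose from 7.49 and 5.44 CPM to 46.2 and 36.4 CPM (log2 fold change 2.48 ± 0.42 (SE), adjusted p 6.36e-05). With 12 and 9 postnatal UMIs it passed the filter on low counts only through the 3m libraries. *Vegfb*, which binds *Flt1*, stood at 18.7, 15.7, 26.1 and 44.9 CPM and was not called (adjusted p 0.134). *Vegfd* and *Pgf* were too low to be tested. *Apela*, the other apelin receptor ligand, had no UMI in endothelial cells of any library.

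Of 14 genes of sprouting tip cells 10 were tested. Of these, 7 were lower at 3m (9.15% over all genes), 3 were not called and none was higher. The median log2 fold change was -1.79, against 0.00 over all genes tested. *Cxcr4*, a chemokine receptor of tip cells, went from 48.7 and 58.1 CPM to 0 and 8.41 CPM (log2 fold change -4.06 ± 0.57 (SE), adjusted p 4.77e-06). *Angpt2*, which opposes the stabilising ligand of *Tek*, went from 71.2 and 131 CPM to 20.1 and 14.0 CPM (-2.72 ± 0.37, adjusted p 3.02e-06). The matrix gene *Nid2* and the urokinase receptor gene *Plaur* also fell (log2 fold changes -2.54 and -2.48). *Cxcr4* (0 and 3 UMIs at 3m) and *Plaur* (6 and 1) passed the filter on low counts only through the postnatal libraries. The count of lower tip cell genes is thus partly set by the filter and is a description. *Pdgfb*, the signal by which endothelial cells recruit pericytes, stood at 205, 204, 243 and 229.9 CPM and was not called. In cells of the endothelial gate alone the summed level of the list was 1088, 1835, 476 and 562 CPM.

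Angiopoietin and Notch genes moved in part the same way. *Tek*, the angiopoietin receptor Tie2, rose from 77.4 and 81.0 CPM to 317 and 286 CPM (log2 fold change 1.74 ± 0.19 (SE), adjusted p 7.45e-08), whereas its partner *Tie1* stood at 192, 186, 173 and 168 CPM and was not called. *Angptl4*, a secreted angiopoietin-like protein, fell by 1.94 on the log2 scale. Of the 10 Notch genes, 3 were lower at 3m and none was higher. These were *Dll4*, the Notch ligand of tip cells (-1.60), *Nrarp*, a feedback inhibitor of Notch (-2.30), and *Hey1*, a Notch target (-1.11). The lists overlap. *Dll4* and *Angpt2* are also counted among the tip cell genes, and *Hey1* and *Vegfc* among the arterial markers. *Hey1* was not called without 3m replicate 1 (adjusted p 0.170), by DESeq2 (adjusted p 0.115) or without a scaling factor (log2 fold change -0.92). *Ptprb*, the phosphatase that acts on *Tek* and *Kdr* proteins, rose by 1.37, and the kinase gene *Src* fell by 2.08.

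Markers of arteries, capillaries and veins were compared as well, and their part in the levels of the 5 genes was not tested. Of 7 arterial markers tested, 4 were higher at 3m and 1 was lower. The 4 had at most 12 UMIs in a postnatal library and passed the filter on low counts only through the 3m libraries, so their count is a description. *Gkn3* had no postnatal UMI and stood at 799 and 219 CPM at 3m, which was at least 552-fold higher with the limit of 3 counts over the postnatal group. *Bmx* rose from 0.624 and 3.63 CPM to 88.4 and 47.7 CPM, and *Sema3g* rose by 2.67. Of 5 capillary markers 4 were lower. The lipid transporter gene *Mfsd2a*, the transferrin receptor gene *Tfrc*, the monocarboxylate transporter gene *Slc16a1* and the amino acid transporter gene *Slc7a5* fell (log2 fold changes -1.53, -1.69, -1.41 and -1.28), and *Slc7a5* was not called without 3m replicate 1 (-0.86, adjusted p 0.00732). *Car4* was not called. Among 5 venous markers 1 was higher, *Vcam1*, with 1.25, 4.84, 209 and 22.4 CPM. With 2 and 8 postnatal UMIs it also passed the filter on low counts only through the 3m libraries. *Vcam1* was not called without 3m replicate 1 or with a gate of 2 of 3 markers (adjusted p 0.0527). *Pdgfb*, *Tie1* and *Car4*, named here although they were not called, were chosen after their values were seen.

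**Figure D4:**
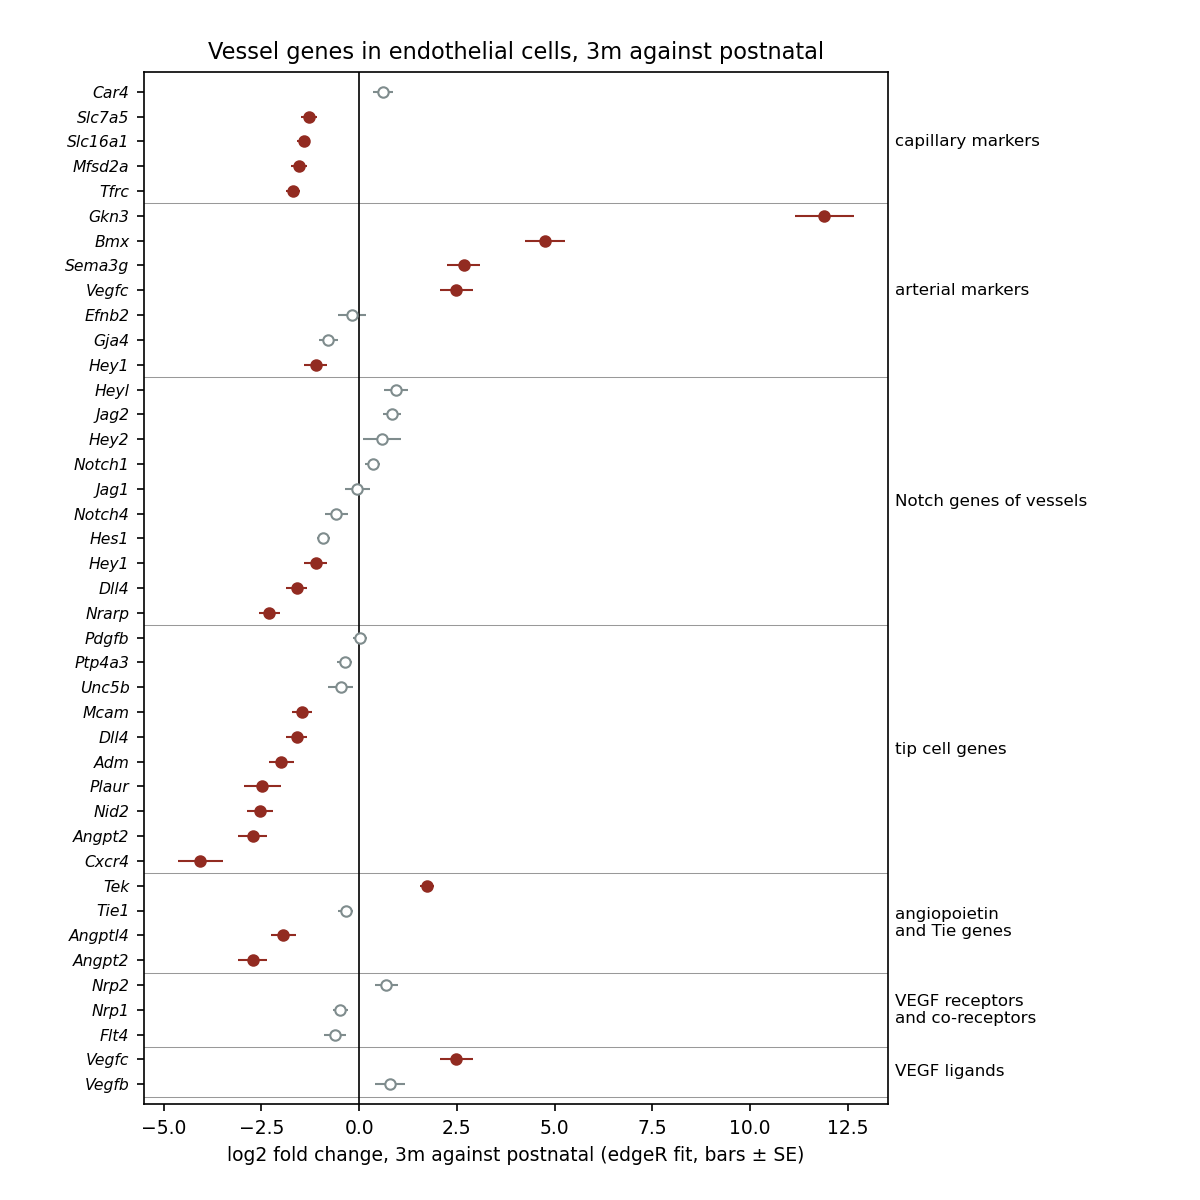
Log2 fold change (3m against postnatal, edgeR, bars ± SE) of the tested genes of 7 lists in endothelial cells, with filled points for called genes and without the 5 members. Of 10 tip cell genes 7 were lower at 3m, and of 7 arterial markers 4 were higher. Both counts are partly set by the filter on low counts and are a description.

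Oxygen-regulated genes showed no common direction in endothelial cells. Of 15 response genes tested, 4 were higher, 2 lower and 9 not called, with a median of 0.22. *Slc2a1*, the glucose transporter of the blood-brain barrier, rose from 446 and 467 CPM to 1402 and 1520 CPM (log2 fold change 1.48 ± 0.15 (SE), adjusted p 3.53e-08). *Ndrg1* rose from 2.50 and 0 CPM to 449.9 and 510.3 CPM, and *Bnip3* rose by 1.40. With 4 and 0 postnatal UMIs, *Ndrg1* passed the filter on low counts only through the 3m libraries. *Adm*, which encodes the vessel peptide adrenomedullin and is also on the tip cell list, fell by 1.99. Of the sensing genes 1 of 7 was called. This was *Epas1*, which encodes a hypoxia-inducible factor and rose from 282 and 290 CPM to 949.9 and 852 CPM. Of 18 other secreted vascular factors 7 were tested, of which 6 were higher and 1 was lower (10.3% and 9.15% over all genes). *Bmp4*, with 8 and 5 postnatal UMIs, passed the filter on low counts only through the 3m libraries, so this count is a description. *Cxcl12*, the ligand of *Cxcr4*, rose by 2.22, *Sema3c* by 4.08, *Bmp4* by 2.51 and *Pdgfa* by 2.01. *Bmp4* and *Pdgfa* were not called without 3m replicate 1 (adjusted p 0.219 and 0.270), and *Bmp4* not without postnatal replicate 2 (0.0569). The mural markers in the endothelial cells rose over the same libraries, from 3554 and 2996 CPM to 9511 and 10088 CPM, and in mural cells *Bmp4* and *Cxcl12* were also higher at 3m, 29.0-fold and 14.4-fold. Their part in these increases was not tested.

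Levels of these genes in the cells of the endothelial gate alone rest on few cells, and no fit could be made there. *Bmp4* had only 1, 0, 3 and 0 UMIs in them, and *Vegfc* 2, 0, 11 and 10. *Cxcl12* stood at 642, 51.3, 2335 and 2496 CPM, and *Sema3c* at 24.4, 0, 386 and 309 CPM. Both were higher in both 3m libraries than in either postnatal one. *Cxcr4* stood at 59.8, 218, 0 and 0 CPM, *Angpt2* at 79.7, 295, 8.49 and 11.2 CPM and *Tek* at 79.7, 64.2, 374 and 326 CPM. For these 3 genes the ages did not overlap either. *Nrp1* stood at 224, 192, 191 and 186 CPM, *Nrp2* at 24.4, 12.8, 127 and 39.4 CPM and *Flt4* at 50.9, 89.8, 25.5 and 45.0 CPM.

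In astroglia, where *Vegfa* and, at 3m, *Apln* were found, few genes of the vessel growth lists passed the filter on low counts. Calls made up 22.7% of all genes tested, with 13.3% on the higher side at 3m and 9.44% on the lower. The postnatal libraries stood further apart than the 3m ones, with a chi-square per degree of freedom between their astroglial counts of 25.0 against 2.63. Without a scaling factor the higher share of the calls changed from 58.5% to 38.9% and the median of all genes was -0.26. *Vegfb* stood at 179.7, 165, 162 and 160.3 CPM and *Pgf* at 13.0, 5.88, 7.85 and 11.2 CPM, and neither was called (adjusted p 0.474 and 0.583). *Nrp1* had 40.5, 20.1, 26.5 and 30.8 CPM and was not called. *Vegfc* and *Vegfd* stayed under 6 CPM and *Apela* under 3 CPM in each library.

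Hypoxia genes in astroglia went both ways. Of 14 response genes tested, 3 were higher, 5 lower and 6 not called, with a median of -0.04. *Slc2a1* rose from 23.0 and 22.8 CPM to 146 and 146 CPM (log2 fold change 2.95 ± 0.17 (SE), adjusted p 0.00172). *P4ha1*, a collagen hydroxylase gene, rose by 1.72. *Egln3*, an oxygen-sensing prolyl hydroxylase gene, fell from 26.3 and 59.2 CPM to 1.47 and 2.00 CPM (-4.34 ± 0.55, adjusted p 0.00518), and the hexokinase gene *Hk2* fell by 2.03. With 3 and 5 UMIs at 3m, *Egln3* passed the filter on low counts only through the postnatal libraries. Of 9 sensing genes, *Epas1* was higher (1.30), *Egln1* and *Egln3* were lower and 6 were not called. *Egln1* and *Egln3* are also counted among the response genes. The counts of these lists, 8 of 14 and 3 of 9, stood beside 22.7% over all genes.

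Transcripts of other secreted vascular factors were split as well in astroglia. Of 12 tested, 3 were higher and 2 lower. *Ndp*, which encodes norrin, a ligand of the blood-retina and blood-brain barrier, rose by 1.53 and *Fgf1* by 1.53. *Angpt1*, the stabilising ligand of *Tek*, fell from 12.1 and 23.4 CPM to 1.47 and 0.80 CPM (-3.74 ± 0.57 (SE), adjusted p 0.00797), and *Tgfb3* fell by 1.78. *Angpt1* (3 and 2 UMIs at 3m) and *Tgfb3* (4 and 3) passed the filter on low counts only through the postnatal libraries. Outside this list *Angptl4* fell by 1.72. The Notch target *Hes1* fell by 1.92, *Akt1* fell by 1.36, and *Nos3* rose by 1.75 from under 3 CPM. With 6 and 14 postnatal UMIs, *Nos3* passed the filter on low counts only through the 3m libraries. *Mfsd2a* and *Slc16a1*, on the capillary list but also known from other cells, rose by 2.91 and 1.53. None of the tip cell, arterial or venous genes tested was called. These calls needed both 3m libraries. Without 3m replicate 1, and likewise without 3m replicate 2, only *Slc2a1* of the 16 called genes of the lists named here was called, with adjusted p of 0.0749 to 0.282 and of 0.0794 to 0.313 for the rest and the same directions. Without postnatal replicate 2, 4 of them were not called, namely *Nos3*, *Epas1*, *Tgfb3* and *Fgf1* (log2 fold changes 1.32, 0.86, -1.96 and 0.88). Calls were also lost with cells of several gates kept (*Nos3*, *Slc16a1* and *Tgfb3*, adjusted p 0.131, 0.125 and 0.0514), by DESeq2 (*Nos3* and *Tgfb3*, adjusted p 0.159 and 0.165) and without a scaling factor (*Fgf1*, adjusted p 0.0558).

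**Figure D5:**
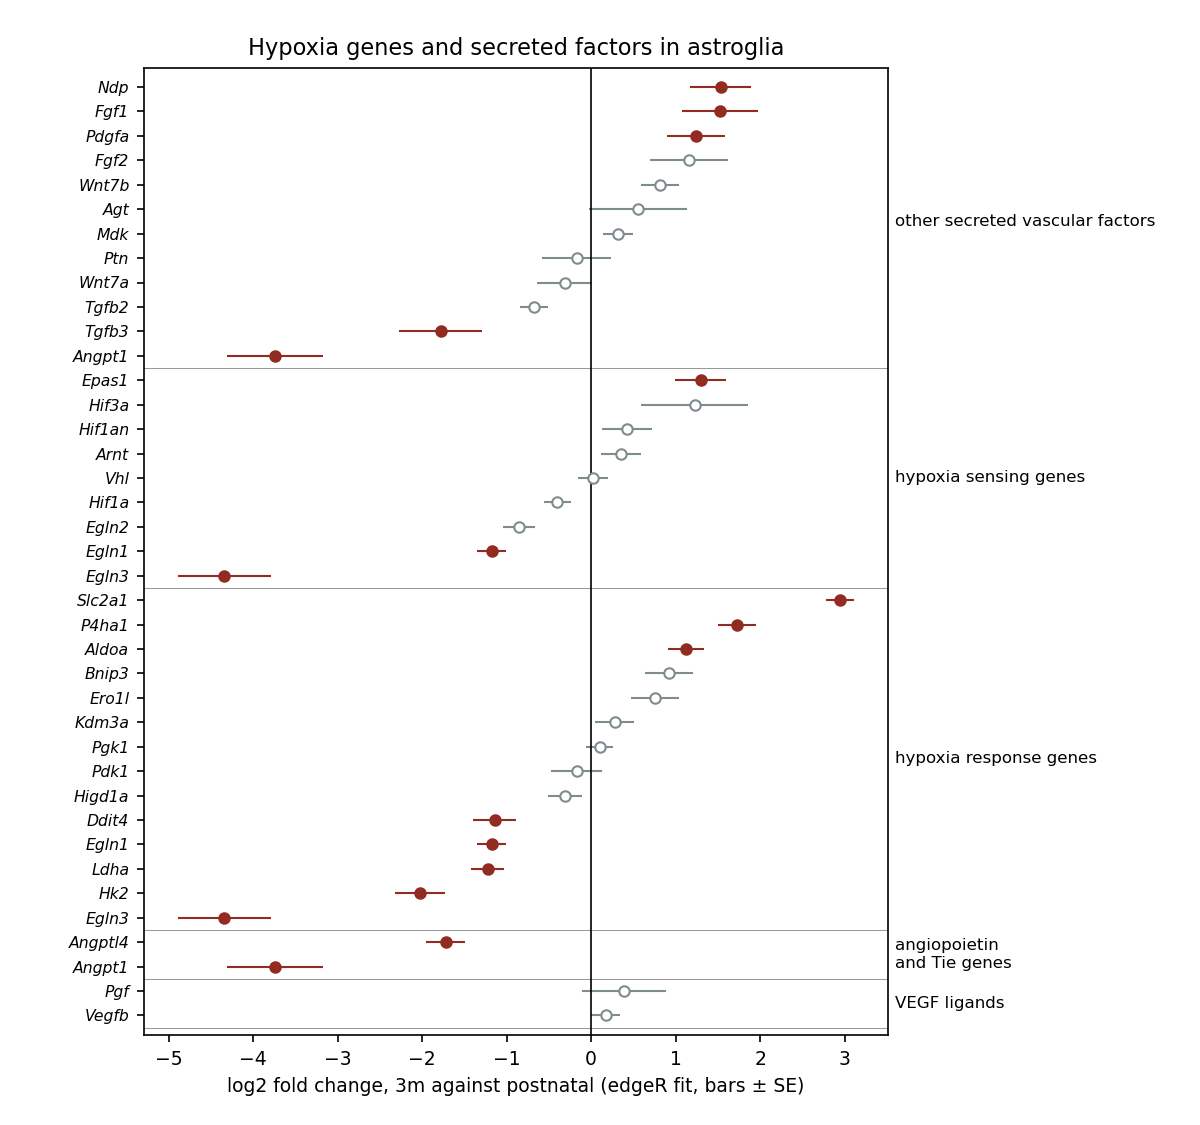
Log2 fold change (3m against postnatal, edgeR, bars ± SE) of the tested genes of 5 lists in astroglia, with filled points for called genes and without the members. Of 14 hypoxia response genes 3 were higher and 5 lower at 3m.

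In mural cells 13.5% of 3973 genes were called by age, 7.43% higher and 6.04% lower at 3m. Pathway genes were few at this depth. *Nrp1* fell from 151 and 100.3 CPM to 48.0 and 42.7 CPM (log2 fold change -1.32 ± 0.40 (SE), adjusted p 0.0429). It was not called without 3m replicate 1 (0.103), without 3m replicate 2 (0.177) or without postnatal replicate 1 (0.0694). *Pgf*, the placental growth factor that binds *Flt1*, stood at 36.1, 74.5, 58.7 and 37.9 CPM and was not called. Also lower were *Angptl4* (log2 fold change -4.04), the ETS factor gene *Ets1* (-1.40), *Nid2* (-4.27), *Tgfb1* (-1.74) and *Mdk*, which encodes midkine (-2.29). *Cxcl12* rose by 3.85 on the log2 scale, *Bmp4* by 4.86, *Car4* by 3.38, *P4ha1* by 1.69 and *Ptp4a3* by 1.40. *Cxcl12* and *Bmp4* passed the filter on low counts only through the 3m libraries, and *Angptl4* and *Nid2* only through the postnatal ones. No mural Notch gene was called.

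Several of these mural calls were lost with a library left out or under another setting, in part at folds of about the same size. For *Nrp1* the log2 fold changes then ran from -1.42 to -1.13. Besides *Nrp1*, *Nid2*, *P4ha1* and *Mdk* were not called without 3m replicate 1 (adjusted p 0.0589, 0.0554 and 0.0982), *Tgfb1* not without 3m replicate 2 (0.107), *Nid2* not without postnatal replicate 1 (0.155), and *Ptp4a3* and *Mdk* not without postnatal replicate 2 (0.0655 and 0.357). DESeq2 did not call 6 of the 11, namely *Nrp1*, *Nid2*, *Ptp4a3*, *P4ha1*, *Mdk* and *Tgfb1* (adjusted p 0.351, 0.0991, 0.088, 0.121, 0.161 and 0.159). With cells of several gates kept, *Car4* and *Ptp4a3* were not called (0.104 and 0.371), and *Mdk*, not called either, had a log2 fold change of 0.59 in place of -2.29. With a gate of 2 of 3 markers *Ptp4a3* and *Mdk* were not called (0.0721 and 0.544).

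Between endothelial cells and astroglia of the same libraries, 36.7% of 10634 genes were called, 16.8% higher and 19.9% lower in endothelial cells, with a median of -0.06. *Flt4*, *Nrp1* and *Nrp2* were all higher there, *Nrp1* by 2.69 ± 0.29 (SE, log2, adjusted p 3.08e-04) and *Nrp2* by 5.42 ± 0.50 (adjusted p 1.33e-04). Of the 12 partners and signalling genes tested, 9 were higher and none lower, among them *Cdh5*, the junction protein that associates with *Kdr*, and the ETS factor genes *Fli1* and *Ets1*. The 9 tip cell genes tested, of 14 listed, were higher. Genes such as *Cdh5* (0, 0, 0 and 1 UMIs in astroglia) and *Fli1* (none) passed the filter on low counts through the endothelial sums, so these counts are partly set by the filter and are given as a description. Of 14 hypoxia response genes tested 5 were higher, 2 lower and 7 not called, with *Slc2a1* higher by 3.76 and *P4ha1* lower (log2 fold change -1.77). Of 7 sensing genes *Epas1* was higher by 3.35, *Vhl* was lower (-1.85) and 5 were not called.

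Ligands lay on both sides. *Vegfb* was lower in endothelial cells by 2.85 ± 0.24 (SE, log2, adjusted p 9.36e-05), and *Pgf* was not called (adjusted p 0.113). *Vegfc* was higher by 2.24 (adjusted p 0.0494). It was not called without 3m replicate 1 (0.164), 3m replicate 2 (0.133) or postnatal replicate 1 (0.0704), nor without both 3m libraries (0.350). The call was also lost without a scaling factor (0.0668), with a gate of 2 of 3 markers (0.0735), with cells of several gates kept (0.0623) and without the smaller cells of shared barcodes (0.0504). Of 12 other secreted factors tested, 7 were lower in endothelial cells, among them *Wnt7a*, *Wnt7b* and *Ndp*, the ligands of the barrier-forming Wnt pathway, and 3 were higher, *Cxcl12*, *Sema3c* and *Tgfb1*. Over all genes 19.9% were lower and 16.8% higher. *Wnt7a* (no UMI in endothelial cells), *Wnt7b* (0, 0, 0 and 1) and *Ndp* (0, 1, 0 and 0) passed the filter on low counts through the astroglial sums. This count is thus partly set by the filter and is a description. The endothelial cells carried the mural and red cell transcripts given above, and their part in these calls was not tested.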

How the data were processed

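Cells of mouse striatum enriched for ACSA2 were profiled with a droplet 3' kit in 4 libraries, sequenced as 12 samples. The authors deposited 1 table of raw UMI counts per gene and cell. Per the labels the reads were aligned to mm10 with Cell Ranger (the labels give no version, and the one in the study's methods belongs to libraries with other identifiers) and handled with Seurat 3.1.1. The members and lists were chosen with earlier results of these data known. Cells with at most 10% mitochondrial UMIs and at least 500 genes were kept. A class needed a UMI of all 3 markers and, except for endothelial cells, no other gate. Endothelial cells that passed another gate were kept, a choice made after seeing the data, because postnatal replicate 2 had only 4 without them. Levels are CPM of the UMIs summed per class and library. For shares at equal depth, cells were thinned to 2000 UMIs. Intervals are 95% exact Poisson or Clopper-Pearson, limits for a count of 0 use 3 counts, and both cover counting error only.

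Other genes were tested on the summed counts with the quasi-likelihood test of edgeR 4.0.16 (R 4.3.3, TMM scaling, genes filtered by filterByExpr), and called where the Benjamini-Hochberg adjusted p did not exceed 0.05 and the log2 fold change reached 1 in either direction. Endothelial cells and astroglia of a library were compared with the library as a block. The scripts were tested on simulated data. Named were all VEGF and apelin genes, up to 4 called genes per other list with the largest change, and the 3 genes most like each member. Alternatives were other scaling, filters, gates and cells, DESeq2 1.42.0, a replicate block and leaving out each library. The study describes independent preparations per age, but for libraries with other identifiers. The labels do not say that the libraries used here came from separate animals, so p-values measure the spread between these libraries, which may be technical.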

Additional observations from a re-analysis of the deposited data

Results flagged for a closer look

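*Apln* moved in opposite directions in 2 classes, with every library of an age on the same side. Its log2 ratio of 3m over postnatal was 3.99 in astroglia and -7.75 in endothelial cells. The difference between the classes was not tested.

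*Vegfa* had a log2 ratio of 1.45 in astroglia and -1.34 in mural cells, where it rested on 8 postnatal and 3 3m UMIs, and the difference was not tested. *Kdr* had a log2 ratio of -0.19 in endothelial cells and 3.77 in mural cells, from 2 postnatal and 16 3m UMIs, and this difference was not tested either. Without 5 mural cells of shared barcodes the level in 3m replicate 2 was 15.0 in place of 56.9 CPM.

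Members were also found in cells outside the comparisons by age. In 3m oligodendrocytes of replicates 1 and 2, *Apln* stood at 43.6 and 34.2 CPM, *Vegfa* at 18.2 and 20.5 CPM and *Kdr* at 12.03 and 8.92 CPM. Stray RNA of other cells was not tested as their source. The astroglial gate marker *Slc1a3* stood at 34.1 and 34.7 CPM in these oligodendrocytes. *Vegfa* in oligodendrocyte precursor cells was 39.8 CPM (postnatal replicate 1) and 257 CPM (3m replicate 1). With the 6 and 7 such cells of the other libraries the 3m mean was 413 ± 221 CPM (SD, n = 2).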

How the results depend on the processing

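With 2 libraries per age, leaving one out leaves a lone library that is assumed to vary like the other group. Genes called by age then ranged from 71 to 3812 in astroglia (main 2554; 140 without 3m replicate 1, 71 without 3m replicate 2), from 1272 to 1545 in endothelial cells (1701) and from 380 to 776 in mural cells (535), and between endothelial cells and astroglia from 3428 to 3921 (3900). The cause was not tested. DESeq2 called 1051 genes in endothelial and 211 in mural cells. Mural calls numbered 853 with no filter beyond 1 UMI, 337 with a gate of 2 of 3 markers and 1918 with cells of several gates kept, where *Mdk* reversed (0.59 against -2.29).

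Log2 ratios of members with a library left out ran from 3.94 to 4.04 for *Apln* and 0.91 to 2.34 for *Vegfa* in astroglia, and in endothelial cells from -4.75 to -3.23 for *Aplnr*, 1.54 to 1.88 for *Flt1* and -0.29 to -0.08 for *Kdr*. For *Apln* in astroglia the ratio was 3.70 in thinned cells, 4.19 with 2 of 3 markers, 3.90 with another astroglial gate, 3.09 with cells of several gates and 4.22 with TMM scaling. With TMM scaling it was 1.45 for *Flt1* and -0.44 for *Kdr*, and in cells of the endothelial gate alone -2.65 for *Aplnr* and -0.43 for *Kdr*. No fit could be made for that gate alone.

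The labels tie same-numbered libraries to no common animal or day, but both replicate 1 libraries had 4 runs and both replicate 2 libraries had 2, and the latter shared 95 barcodes (correlation of same-numbered deviations 0.19, 0.02 and 0.17 in astroglia, endothelial and mural cells). With a replicate block 2795, 1731 and 581 genes were called, and with no replicate block between endothelial cells and astroglia 3710. Over named genes, the settings other than a library left out gave 953 values of the same direction and side of the threshold, 24 that lost the call, 5 that moved and 1 that reversed. With a library left out 421 were the same, 57 lost the call, 3 gained it and 5 moved.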
